A study of Mus musculus with 8 samples.

Results

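Lymphatic vessels drain fluid, proteins and immune cells from tissue, and their lining cells arise largely from veins of the embryo. The homeobox factor Prox1 gives these cells their identity, Flt4 (VEGF receptor 3) answers the growth factors Vegfc and Vegfd, and Pdpn (podoplanin), Lyve1 (a hyaluronan receptor), Reln (the secreted glycoprotein reelin) and the chemokine Ccl21a mark them at different stages. Most of these transcripts have other sources too: mesothelium, the cell layer that lines body cavities, also makes Pdpn, and tissue macrophages also make Lyve1. In large vessels, lymphatics run in the outer coat, so a dissected segment can carry some of them.

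The markers examined were all probe sets annotated to exactly 1 of the genes Pdpn, Lyve1, Prox1, Flt4, Ccl21a and Reln. The rule found 10 probe sets for 5 genes, out of 34945 probe sets for 18193 genes that carried a single gene symbol. Pdpn had 1 probe set, Lyve1, Flt4 and Reln 2 each, and Prox1 3. No probe set was annotated to Ccl21a alone, because its probe set is shared by 9 gene symbols of the near-identical Ccl21 family, so Ccl21a has no value of its own here.

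Total RNA came from the ductus arteriosus, the fetal vessel between the pulmonary artery and the descending aorta that closes after birth, and from the aorta. The mice were untreated fetuses on day 19 of gestation, labelled as wild type and as strain CD88. Each of the 8 Affymetrix arrays (4 per tissue) held vessel segments pooled from up to 10 pups of 1 pregnant female, so the spread is between litter pools and not between pups. The segments were whole vessel pieces with no sorting of cells, and which neighbouring tissue was trimmed away is not given in the sources used here. Over 8 smooth muscle markers, the mean log2 level was 8.79 to 9.34 on the aorta arrays and 9.60 to 10.13 on the ductus arrays.

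Values are log2 signals. Array medians lay between 4.36 and 4.42, first quartiles between 2.74 and 2.86, and upper quartiles between 7.0 and 7.08. No detection call was used, so a probe set near or below the first quartile is not shown to be above background. Differences are ductus minus aorta on the log2 scale, with the standard error (SE) of the limma model, and p-values come from limma after Benjamini-Hochberg adjustment over all genes (or all single-gene probe sets). A gene, represented by its probe set of highest mean, or a probe set was called at an adjusted p under 0.05. In bulk tissue such as this, fewer cells of a type and less RNA per cell cannot be told apart.

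All 5 genes had a lower mean in the ductus than in the aorta (Prox1 changed sign when arrays were scaled to endothelial markers, as described with Lyve1, and stood at 0.04 without aorta replicate 4), and 2 of them, Pdpn and Lyve1, passed the test. Over all genes, 2.06% were called higher in the aorta and 1.80% higher in the ductus. The members' median difference was -0.72, beside -0.032 over all 18193 genes. Flt4, Reln and Prox1 did not pass, and on each of them the arrays of the tissues overlapped. Among the 10 probe sets, 2 were called lower in the ductus (1 of Pdpn and 1 of Lyve1) and 0 higher, where 1.47% of all single-gene probe sets were called higher in the aorta and 1.39% higher in the ductus. The count of 2 was 4 without aorta replicate 3 and 1 without any other single array. By limma, 4 of the 10 had an unadjusted p under 0.05, beside 14.6% of all such probe sets.

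**Figure D1:**
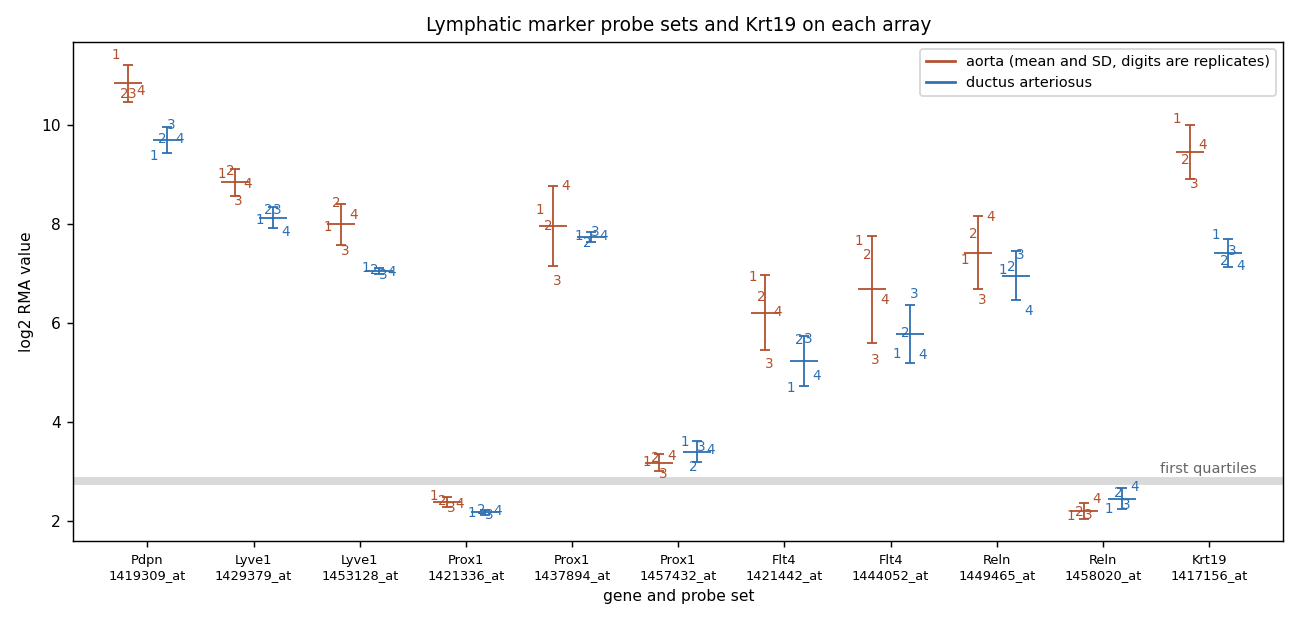
Log2 value (vertical axis) of the 10 lymphatic marker probe sets and of Krt19 on each array, by gene and probe set (horizontal axis); digits are replicate numbers, bars the mean and SD over 4 arrays, and the grey band the first quartiles of the arrays. Pdpn, both Lyve1 probe sets and Krt19 lie lower in the ductus on every array, while Prox1, Flt4 and Reln probe sets other than Prox1 1421336_at overlap between the tissues; Prox1 1421336_at and Reln 1458020_at lie below the band.

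Promoter windows of 300 bases were read from RefSeq (build GRCm38.p6) for Pdpn, the called member with a window in the table used, and for Flt4, the receptor gene with the next largest difference. Each runs from 250 bases before the annotated start to 50 after it. The Pdpn window is chr4:143299515-143299814 on the minus strand and that of Flt4 is chr11:49609429-49609728 on the plus strand. They are shown because the 2 genes have different base composition near the start, 48.7% G or C for Pdpn and 70.3% for Flt4 against a median of 52.7% over 32851 promoter windows. Capitals mark the GC box GGGCGG on either strand.
Pdpn: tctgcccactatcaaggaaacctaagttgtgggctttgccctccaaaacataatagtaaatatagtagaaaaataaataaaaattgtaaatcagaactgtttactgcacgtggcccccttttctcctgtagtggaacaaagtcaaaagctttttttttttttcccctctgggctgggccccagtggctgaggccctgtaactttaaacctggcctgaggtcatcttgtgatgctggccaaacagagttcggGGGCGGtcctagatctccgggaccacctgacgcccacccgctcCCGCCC
Flt4: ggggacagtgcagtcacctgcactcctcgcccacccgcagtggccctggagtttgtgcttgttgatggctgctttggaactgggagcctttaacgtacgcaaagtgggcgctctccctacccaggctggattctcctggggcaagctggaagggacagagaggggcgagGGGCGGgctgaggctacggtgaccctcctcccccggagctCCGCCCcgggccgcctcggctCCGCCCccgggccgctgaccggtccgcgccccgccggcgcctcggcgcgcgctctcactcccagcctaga
The Pdpn window held 2 GC boxes and the Flt4 window 3, and 35.7% of all windows held at least 1 on either strand. Neither window held the TATA box TATAAA, which 13.6% of all windows held on either strand. Both also lacked the ETS core CCGGAAG (8.86% of windows), the SOX core AACAAT (10.7%) and the GATA core AGATAA (11.2%). A match of letters is a description and not a binding site.

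Pdpn, a mucin-like membrane glycoprotein that binds the platelet receptor Clec1b, was at 11.40, 10.62, 10.62 and 10.68 on aorta replicates 1 to 4. On ductus replicates 1 to 4 it was at 9.36, 9.71, 9.99 and 9.71. Every aorta array was above every ductus array, as in 6.06% of all genes, and aorta replicate 1 stood above the other aorta arrays. The means were 10.83 ± 0.384 in the aorta and 9.69 ± 0.254 in the ductus (SD, n = 4 each). Pdpn was thus 2.20-fold more abundant in the aorta, a difference of -1.14 ± 0.203 (SE), with an adjusted p of 0.0135. The call was kept on leaving out any of the 8 arrays, with differences of -1.24 to -0.95 and adjusted p between 0.0127 and 0.0449.

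Krt19, a keratin of simple epithelia and mesothelium, is set beside Pdpn because mesothelium makes both. It was at 10.11, 9.28, 8.81 and 9.58 on the aorta arrays and 7.78, 7.25, 7.45 and 7.15 on the ductus arrays. These groups did not overlap either, and aorta replicate 1 was again the highest. Krt19 was 4.11-fold more abundant in the aorta, at 9.45 ± 0.547 against 7.41 ± 0.275 (SD, n = 4 each; adjusted p = 0.00219). Within the aorta both genes ran in the order of replicates 1, 4, 2 and 3, but Pdpn hardly differed between the last 3 (10.68, 10.62 and 10.62). Within the ductus the orders differed, since replicate 1 had the highest Krt19 and the lowest Pdpn.

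**Figure D2:**
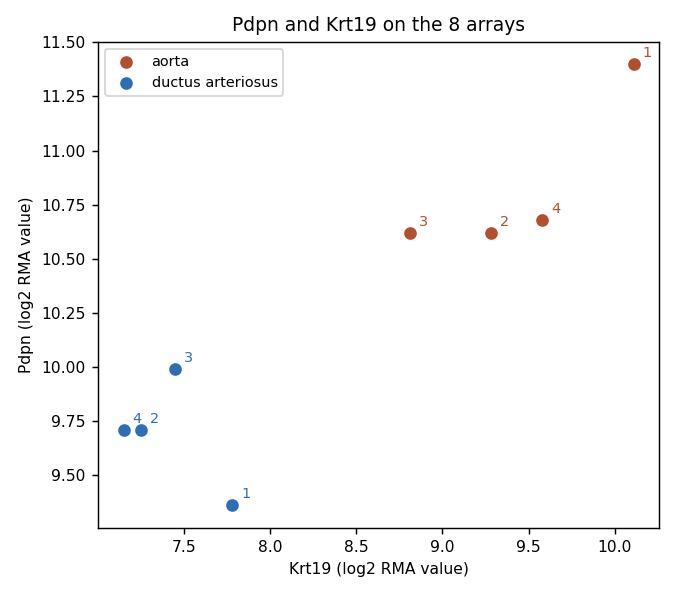
Log2 value of Pdpn (vertical axis) against Krt19 (horizontal axis) on the 8 arrays, 1 point per array, coloured by tissue, with replicate numbers. The 4 aorta arrays (Pdpn 10.62 to 11.40) lie above and to the right of the 4 ductus arrays (9.36 to 9.99); ductus replicate 1 has the highest Krt19 and the lowest Pdpn of its tissue.

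The fitted difference of Krt19, -2.04, was larger than that of Pdpn, -1.14. Pdpn minus Krt19 on the same array was 1.29, 1.34, 1.81 and 1.10 in the aorta and 1.59, 2.45, 2.54 and 2.56 in the ductus. The groups overlapped, because ductus replicate 1 lay below aorta replicate 3. The change in this quantity, 0.90, gave p = 0.0571 in an exact two-sided permutation test over the 70 splits of the arrays, whose smallest possible p is 0.0286. A difference between the changes of the 2 genes was therefore not shown at this number of arrays.

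Between the tissues, the mesothelial list as a whole differed in the same direction as Pdpn. Of its 12 measured genes, 12 had a lower mean in the ductus and 9 were called, with a median difference of -1.78. Its mean level ran from 7.60 to 9.00 over the aorta arrays and from 6.37 to 6.99 over the ductus arrays, and 0 of its genes had a mean below the first quartiles. Within the aorta the list mean was highest on replicate 1 (9.00), where Pdpn was highest too (11.40). Within the ductus it was also highest on replicate 1 (6.99), where Pdpn was lowest (9.36). Muc16, a membrane mucin, was 4.37-fold (adjusted p = 0.00155), the uroplakin gene Upk1b 2.69-fold (adjusted p = 0.00416) and Msln, mesothelin, 3.79-fold more abundant in the aorta (adjusted p = 0.00706). With the mean of this list as a covariate, the Pdpn difference was -0.51 and was not called (adjusted p = 0.788), in a fit that called 50 of all genes instead of 702. The list mean did not overlap between the tissues, so that fit can hardly separate it from tissue. Which cells the Pdpn transcripts came from was not tested.

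Lyve1, the receptor for hyaluronan on lymphatic endothelium and some macrophages, was measured by a pair of probe sets with the same direction. The one of higher mean, 1429379_at, was at 9.01, 9.07, 8.45 and 8.80 on the aorta arrays and at 8.08, 8.27, 8.28 and 7.83 on the ductus arrays. The other, 1453128_at, was at 7.93, 8.41, 7.44 and 8.18 in the aorta and 7.10, 7.07, 6.97 and 7.03 in the ductus. On both, the lowest aorta array (replicate 3) was above the highest ductus array, so the tissues did not overlap. Over all single-gene probe sets, 5.42% were higher in the aorta without overlap.

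As a gene, Lyve1 was 1.65-fold more abundant in the aorta (8.83 ± 0.280 against 8.12 ± 0.213, SD, n = 4 each), a difference of -0.72 ± 0.164 (SE) with an adjusted p of 0.0434. This call was near the threshold. It was kept without aorta replicate 3 (adjusted p = 0.0176) and lost without any 1 of the other 7 arrays (adjusted p up to 0.123), although the difference stayed between -0.85 and -0.62. In the fit over all probe sets, 1453128_at was called (-0.94 ± 0.188, 1.92-fold, adjusted p = 0.0266) and 1429379_at was not (adjusted p = 0.0515).

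Endothelial and macrophage markers are the background for Lyve1. Of 20 blood vessel endothelial genes, 18 had a lower mean in the ductus, 3 were called higher in the aorta and 0 higher in the ductus, with a median difference of -0.47. By limma, 15 of the 20 had an unadjusted p under 0.05, as did 16.1% of all genes. Cldn5, which seals endothelial junctions, was 2.48-fold (adjusted p = 0.0154), the adhesion molecule Pecam1 1.54-fold (adjusted p = 0.0242) and the junction regulator Rasip1 1.82-fold more abundant in the aorta (adjusted p = 0.0339). Rasip1 was weak, at 3.63 to 4.29 in the aorta and 2.83 to 3.41 in the ductus, where its lowest array was near the first quartiles. Erg, named after its values were seen, was higher in the ductus by 0.73 without overlap (adjusted p = 0.0595). The Cldn5 call was lost without ductus replicate 4 (adjusted p = 0.0522), that of Pecam1 without aorta replicate 2 or ductus replicate 1, 2 or 3 (up to 0.0735), and that of Rasip1 without aorta replicate 2 or 4 or ductus replicate 2, 3 or 4 (up to 0.101). On arrays centred on the median the Pecam1 call was also lost (adjusted p = 0.0666), and on the scale of the endothelial list mean, which holds these genes, so were those of Pecam1 (0.304) and Rasip1 (0.0597). Of 20 macrophage genes, limma called 0 and 4 had an unadjusted p under 0.05, with a median difference of -0.16 and 6 of the 20 higher in the ductus. The largest differences in that list were toward the ductus, in Ptprc, the pan-leukocyte surface phosphatase (0.81, adjusted p = 0.324), and Mpeg1, a macrophage pore protein (0.69, adjusted p = 0.282), both with overlap between the tissues. The scavenger receptor genes Mrc1 and Cd163, carried by many Lyve1-bearing macrophages, were named after their values were seen. They differed the other way, by -0.49 (adjusted p = 0.0570) and -0.55 (adjusted p = 0.0783), and were the 2 of the 20 genes without overlap between the tissues. Of the same list, and also named after their values were seen, F13a1 (-0.38, adjusted p = 0.257) and Folr2 (-0.19, adjusted p = 0.630) were lower in the ductus with overlap. Timd4 was higher in the ductus (0.37, adjusted p = 0.512), also with overlap. The endothelial list mean was 6.97 to 7.33 in the aorta and 6.66 to 6.94 in the ductus, and the macrophage mean 7.00 to 7.29 and 6.54 to 7.37. Their part in the Lyve1 difference was not tested.

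The members were also set against the endothelial list on the same array. When every array was scaled to the mean of that list, the median over all genes moved from -0.03 to 0.38, and 5049 genes were called. On that scale Pdpn was still lower in the ductus (-0.72, adjusted p = 0.0303), Lyve1 differed by -0.30 and was not called (adjusted p = 0.137), and Prox1 changed sign to 0.19 (adjusted p = 0.534).

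Prox1, the factor that starts and maintains lymphatic identity, had 1 probe set well inside the range of expressed genes. That probe set, 1437894_at, was at 8.27, 7.95, 6.85 and 8.75 on the aorta arrays and at 7.75, 7.60, 7.83 and 7.75 on the ductus arrays. The ductus values lay close together, from 7.60 to 7.83, and all of them fell between the lowest and highest aorta values. The means were 7.95 ± 0.809 and 7.73 ± 0.0949 (SD, n = 4 each), a difference of -0.22 with a 95% interval of -0.98 to 0.53 and an adjusted p of 0.814. The interval includes a 1.65-fold change such as that of Lyve1, so an equal level is not shown.

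The other Prox1 probe sets were weak. The set 1421336_at was at 2.26 to 2.50 in the aorta and 2.11 to 2.22 in the ductus, below every array's first quartile, and gives no expression level. The set 1457432_at was at 2.94 to 3.30 and 3.09 to 3.58, little above the quartiles. Neither was called (adjusted p = 0.420 and 0.544), and the second had the opposite direction.

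Flt4, the receptor tyrosine kinase that drives lymphatic growth, was measured by 2 probe sets of the same direction. On 1444052_at the aorta arrays were at 7.64, 7.36, 5.24 and 6.46 and the ductus arrays at 5.37, 5.79, 6.58 and 5.34. On 1421442_at they were at 6.92, 6.52, 5.16 and 6.22 in the aorta and 4.68, 5.64, 5.68 and 4.93 in the ductus. Aorta replicate 3 stood at the level of the ductus arrays on both, and the tissues overlapped.

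The Flt4 means were 6.67 ± 1.08 in the aorta and 5.77 ± 0.578 in the ductus (SD, n = 4 each), a difference of -0.90 ± 0.496 (SE) with a 95% interval of -2.02 to 0.21 and an adjusted p of 0.424. This difference was larger than that of Lyve1 but so was the spread. Without aorta replicate 3, the gene differed by -1.38 and did not pass (adjusted p = 0.0846), while the probe set 1421442_at differed by -1.32 and passed (adjusted p = 0.0439).

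Reln, best known for guiding neurons in the developing brain and also secreted by lymphatic endothelium, was at 7.27, 7.80, 6.45 and 8.14 on the aorta arrays and at 7.06, 7.13, 7.37 and 6.23 on the ductus arrays (1449465_at). The lowest ductus array, replicate 4, and the lowest aorta array, replicate 3, were close to each other. The means were 7.41 ± 0.738 and 6.95 ± 0.496 (SD, n = 4 each), and the difference of -0.46 (95% interval -1.28 to 0.36) did not pass (adjusted p = 0.606). The second Reln probe set, 1458020_at, was at 2.09 to 2.69 over all arrays, below every first quartile, and gives no expression level.

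The Ccl21 family probe set, which is no member and cannot be assigned to Ccl21a, was at 6.73, 7.31, 5.35 and 7.07 in the aorta and 5.14, 5.77, 6.70 and 5.19 in the ductus. The chemokines of this family draw dendritic cells and T cells towards lymphatics and are also made in the thymus. The tissues overlapped, and the difference of -0.92 ± 0.456 (SE) did not pass in a fit over all probe sets other than controls (adjusted p = 0.427). Of 10 thymic epithelium genes limma called 0 (1 at an unadjusted p under 0.05), and of 9 thymocyte genes also 0 (0 at an unadjusted p under 0.05). The largest differences were in the keratin gene Krt14 (-1.50, adjusted p = 0.0603) and Cd83 (0.36, adjusted p = 0.631) of the first list, and in the T cell coreceptor gene Cd8a (1.42, adjusted p = 0.662) and the recombinase gene Rag1 (1.35, adjusted p = 0.504) of the second. Each of the 9 thymocyte genes had a higher mean in the ductus, with a median difference of 1.29. Thymocyte list means ranged widely, from 3.48 to 6.36 over the aorta arrays and from 3.94 to 7.14 over the ductus arrays.

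**Figure D3:**
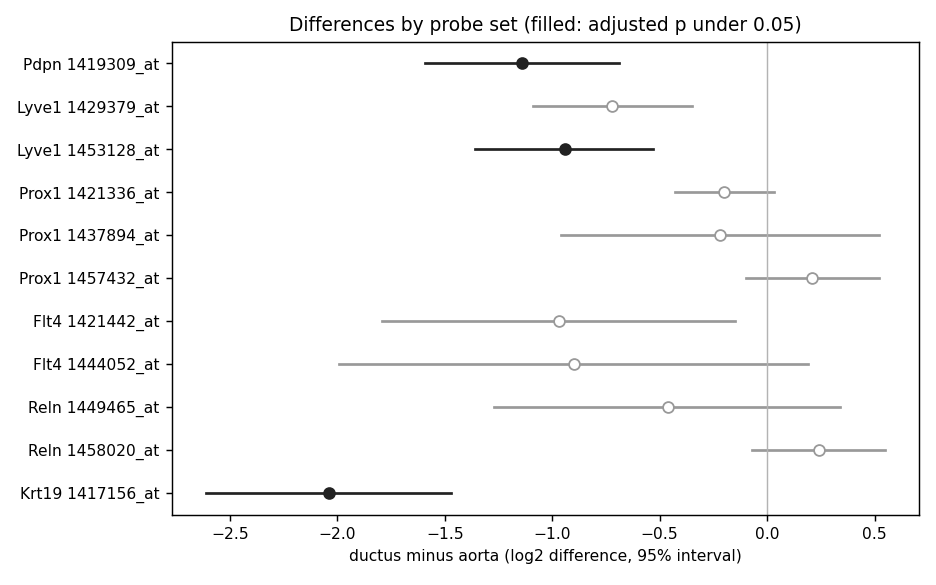
Ductus minus aorta log2 difference (horizontal axis) with its 95% interval for each lymphatic marker probe set and Krt19 (vertical axis); filled points have an adjusted p under 0.05 over all single-gene probe sets. Pdpn (-1.14), Lyve1 1453128_at (-0.94) and Krt19 (-2.04) are filled, and Prox1 1457432_at and Reln 1458020_at lie to the right of 0.

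On their probe sets of highest mean, the members shared a lowest aorta array and a highest ductus array, a pattern noticed after the values were seen. For all 5 genes these were aorta replicate 3 and ductus replicate 3. Pdpn, however, read 10.62 on both aorta replicates 2 and 3, and Lyve1 8.28 and 8.27 on ductus replicates 3 and 2. The other Lyve1 probe set, 1453128_at, was lowest on replicate 3 in the aorta (7.44) but also in the ductus (6.97). On the weak Prox1 probe set 1457432_at, ductus replicate 1 (3.58) was above ductus replicate 3 (3.48). The other Flt4 probe set, 1421442_at, kept the pattern. Over all genes, 25.7% had aorta replicate 3 lowest, 29.2% had ductus replicate 3 highest, and 8.77% had both. Among genes with a mean of at least log2 6, 10.9% had both. The shared Ccl21 probe set had both. Of the 20 endothelial genes 6 had both, and of the 12 mesothelial genes 4 did. Lowest on aorta replicate 3 were 13 of the 20 endothelial and 12 of the 12 mesothelial genes.

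**Figure D4:**
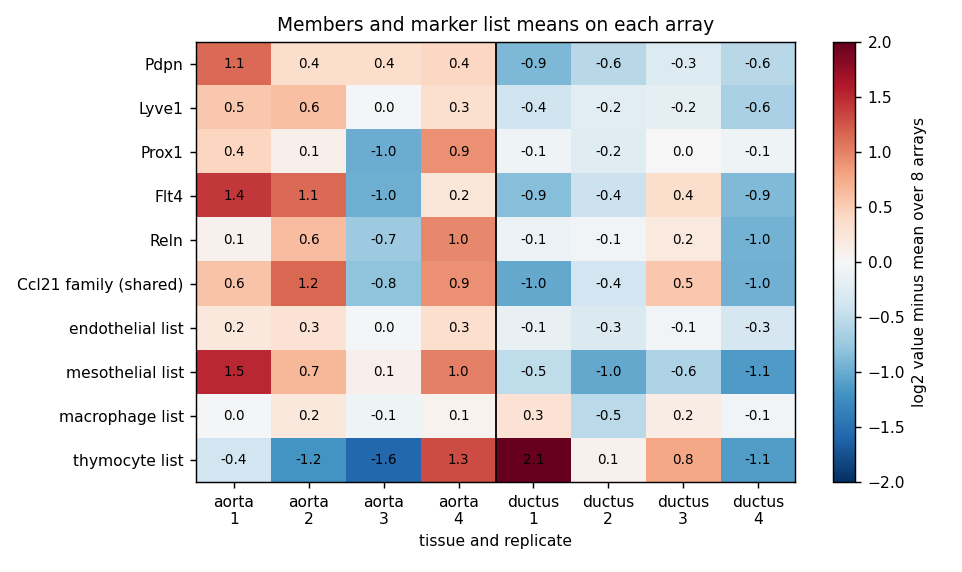
Log2 value minus the mean over 8 arrays (colour and printed number) for the 5 members (each by its probe set of highest mean), the shared Ccl21 probe set and the means of 4 marker lists (rows), on each array (columns). Each of the members and the Ccl21 row is lowest on aorta replicate 3 within the aorta and highest on ductus replicate 3 within the ductus; the thymocyte list is highest on ductus replicate 1.

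For the members that were not called, aorta replicate 3 lay among or below the ductus arrays. It was at 6.85 for Prox1, below every ductus array, at 5.24 for Flt4, also below every ductus array, and at 6.45 for Reln, above ductus replicate 4 alone. Mmrn1, multimerin 1, another gene of lymphatic endothelium and platelets and named after its values were seen, was lowest there too. It was at 7.42, 7.29, 5.74 and 6.29 in the aorta and 6.92, 7.24, 7.03 and 6.44 in the ductus, with a difference of 0.22 (adjusted p = 0.823). In the ductus its highest array was thus replicate 2 and not replicate 3. The other genes of its list, looked at after their values were seen, went several ways. Stab1, Sema3d, Nts and Thy1 were also lowest in the aorta on replicate 3. Cd9, Cd36 and Clca3a1 were highest there, and Ackr4 and Ackr2 were lowest on replicate 4.

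Genes with the nearest profile were sought among 8467 others with a mean of at least log2 6, by the root-mean-square distance over 8 arrays after each gene's own mean was subtracted. For Pdpn these were Gap43 (distance 0.221), Tspan5 (0.225) and Gpm6a (0.244), all lower in the ductus. For Lyve1 they were Ecscr (0.114), Fam189a2 (0.116) and Clec3b (0.123). Those of Prox1 were Retreg1 (0.226), Fndc10 (0.226) and Irgm2 (0.233), and those of Reln were Fbln2 (0.261), Hyi (0.268) and Ttc38 (0.279). Flt4 had no gene as near, with Hoxd9 at 0.442, Slc10a6 at 0.509 and Ttc27 at 0.510. Among the members themselves, Pdpn and Lyve1 were nearest, at 0.347, and Prox1 and Reln at 0.397, while Pdpn and Krt19 were 0.564 apart. The values were not scaled, so the distance also grows when 2 genes differ in the size of the change between tissues. That change was -1.14 for Pdpn, -0.72 for Lyve1 and -2.04 for Krt19.

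Genes that act with the markers in lymphatic development went both ways. Of 54 measured, 6 were called higher in the ductus and 5 higher in the aorta, 20.4% in all beside 3.86% of all genes, with a median difference of -0.07. The count of 11 was 7 without aorta replicate 2 or without ductus replicate 3. Vegfc and Vegfd had opposite directions in every setting run.

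Of 9 ligand genes and genes that process or hold ligands, 3 were called higher in the ductus and 1 higher in the aorta. Vegfc, the main growth factor for Flt4 in the embryo, was at 7.16, 7.79, 7.45 and 7.13 on the aorta arrays and 5.76, 6.03, 5.89 and 5.69 on the ductus arrays, with no overlap. It was 2.91-fold more abundant in the aorta (-1.54 ± 0.161, SE; adjusted p = 0.000771), and all 3 of its probe sets were called in this direction. Vegfd, the second ligand of Flt4, was at 7.78, 7.76, 7.59 and 7.37 in the aorta and 8.55, 8.89, 8.97 and 9.05 in the ductus, also without overlap. It was 2.36-fold more abundant in the ductus (1.24 ± 0.144, SE; adjusted p = 0.00145), in the same direction on 3 of 3 probe sets and called on 2. Both calls were kept on leaving out any 1 array. So the 2 ligands of the same receptor were each called, in opposite directions.

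Genes that process or hold these ligands differed as well. Adamts3, the protease that activates Vegfc, was 2.29-fold more abundant in the ductus (adjusted p = 0.0118), but its other probe set went the opposite way and their mean did not pass (0.57, adjusted p = 0.0634). Svep1, a matrix protein needed for lymphatic growth, was 1.74-fold more abundant in the ductus (adjusted p = 0.0467), a call lost without any 1 of aorta replicates 2, 3 and 4 or ductus replicates 2, 3 and 4 (adjusted p up to 0.130), on arrays centred on the median (0.0635), after repeated quantile normalization (0.0781) and with a variance trend (0.0644). Ccbe1, the cofactor of Adamts3, differed by -0.87 without overlap and did not pass (adjusted p = 0.0714). The last was named after its values were seen.

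Among 10 receptor genes, 1 was called in each direction. Nrp2, a coreceptor of Flt4, was at 7.24, 7.19, 7.03 and 7.56 in the aorta and 7.72, 8.44, 8.14 and 8.13 in the ductus. It was 1.81-fold more abundant in the ductus (adjusted p = 0.0249), in the same direction on 4 of 4 probe sets, although leaving out any 1 of aorta replicates 1, 2 and 3 or ductus replicates 2, 3 and 4 ended the call (adjusted p up to 0.0769). Tek, the angiopoietin receptor of blood and lymphatic endothelium, was 1.65-fold more abundant in the aorta (adjusted p = 0.00906). On the scale of the endothelial list mean, Tek was not called (-0.30, adjusted p = 0.118).

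Of 10 transcription factor genes, Gata2, which acts in lymphatic valves and blood cells, was the single call. It was 1.58-fold more abundant in the aorta (adjusted p = 0.0313), a call lost without any 1 of 7 arrays (adjusted p up to 0.0877) and kept without aorta replicate 3. It was also lost on arrays centred on the median (adjusted p = 0.0531) and on the scale of the endothelial list mean (-0.25, adjusted p = 0.209). Factors upstream of Prox1, named after their values were seen, did not pass: Sox18 differed by -0.82 (adjusted p = 0.0921) and Nr2f2 by 0.49 (adjusted p = 0.303).

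Valve and junction genes had 2 members higher in the aorta and 1 higher in the ductus of 9 measured. Celsr1, a planar polarity cadherin needed in valve formation, was 2.13-fold more abundant in the aorta (7.61 against 6.52; adjusted p = 0.00219). Gja4, the connexin 37 gene of arterial endothelium and lymphatic valves, was 2.48-fold more abundant in the aorta (adjusted p = 0.0187, and up to 0.0636 without aorta replicate 2, aorta replicate 4 or ductus replicate 4). Fn1, fibronectin, was 1.44-fold more abundant in the ductus (adjusted p = 0.0193, and up to 0.0610 without ductus replicate 1 or 3).

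Among 10 other genes found in lymphatic endothelium, 1 was called. Clca3a1, a chloride channel regulator, was at 7.15, 7.05, 7.35 and 6.86 in the aorta and 9.16, 9.11, 9.51 and 9.01 in the ductus, 4.28-fold more abundant in the ductus without overlap (adjusted p = 8.28e-05). Its direction was opposite to that of all 5 members. Stab1, a scavenger receptor of lymphatic and sinusoidal endothelium and macrophages and named after its values were seen, differed by -0.85 (adjusted p = 0.0948). Of 6 genes that act in the platelet pathway that keeps blood and lymph apart, in which Clec1b is the receptor for podoplanin, limma called 0 and 0 had an unadjusted p under 0.05. The largest differences there were in the platelet genes Gp9 (0.39, adjusted p = 0.498) and Itga2b (0.35, adjusted p = 0.618).

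**Figure D5:**
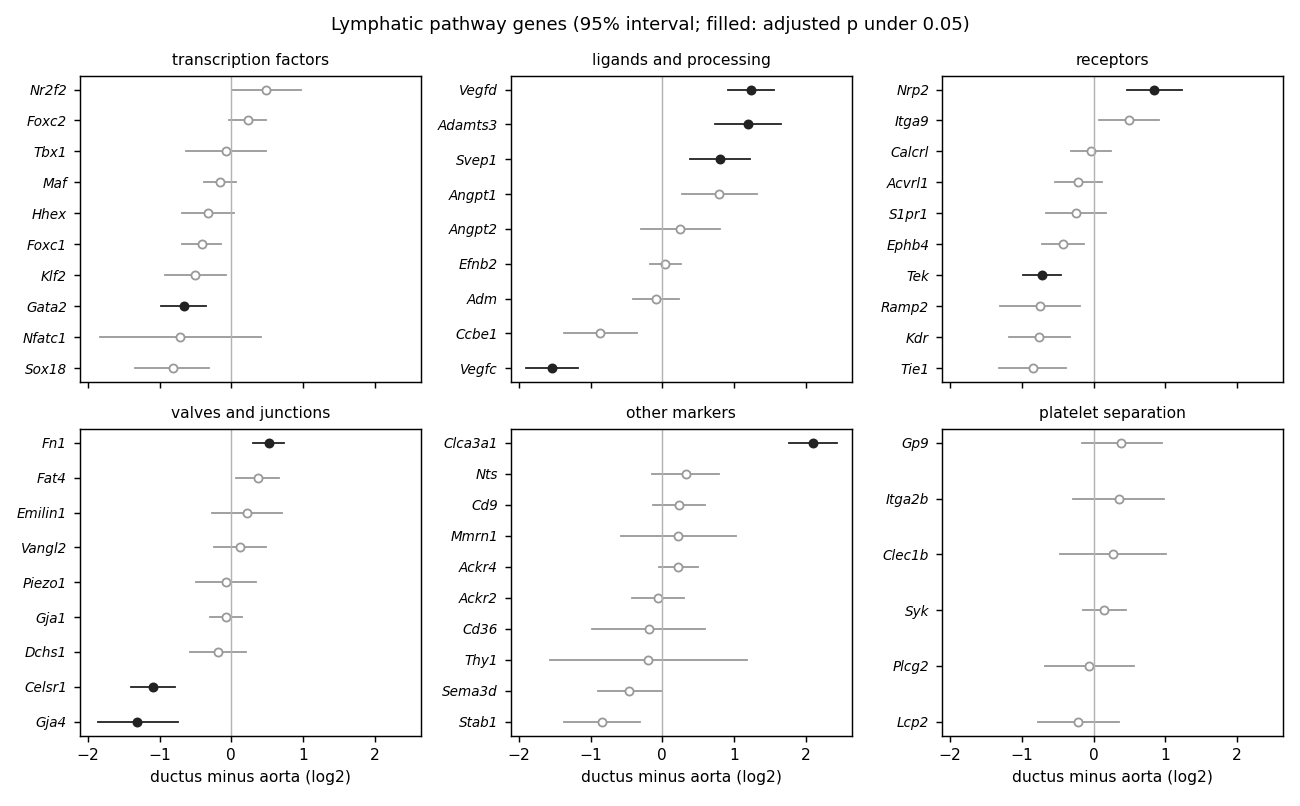
Ductus minus aorta log2 difference with its 95% interval (horizontal axis) for the 54 measured lymphatic pathway genes (vertical axis), in 6 panels by role; filled points have an adjusted p under 0.05 over all genes. The ligand panel has Vegfc at -1.54 and Vegfd at 1.24, and the panel of other markers has Clca3a1 at 2.10.

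Other cells that make a member were looked at through their own markers. Of 11 cardiac muscle genes, since heart muscle makes Prox1, 1 was called: Tnnt2, cardiac troponin T, 2.42-fold more abundant in the aorta (adjusted p = 0.0350), a call kept without ductus replicate 1 or 3 and lost without any 1 of the other arrays (up to 0.102). The 3 Tnnt2 probe sets had the same direction, and 1 of them was called. Of the 11 cardiac genes, 5 had a higher mean in the ductus, and the median difference was -0.14. The cardiac list mean was 5.57 to 6.75 in the aorta and 5.58 to 6.37 in the ductus. It was highest on aorta replicates 4 (6.75) and 1 (6.68), the arrays with the highest Prox1, but lowest in the aorta on replicate 2 (5.57), where Prox1 was at 7.95, and not on replicate 3 (5.69), where Prox1 was lowest. Ductus replicate 1 had the highest cardiac mean of its tissue (6.37) and a Prox1 value of 7.75, within the narrow ductus range. Of 10 neuron genes, since neurons make Prox1 and Reln, limma called 0 (3 at an unadjusted p under 0.05), with list means of 4.43 to 4.77 over all arrays. The largest neuron differences were in Elavl4 (1.47, adjusted p = 0.0562) and Stmn2 (-0.90, adjusted p = 0.0517). Of 8 genes of flat alveolar lung cells, since these make Pdpn, limma called 0 (5 at an unadjusted p under 0.05), and the list mean was 5.95 to 6.27 in the aorta and 5.75 to 6.25 in the ductus. Its largest differences were in Gprc5a (-0.89, adjusted p = 0.105) and Clic5 (-0.68, adjusted p = 0.216). Of 8 airway and surfactant genes, 2 were called higher in the ductus: Cxcl15, which encodes a lung chemokine, by 35.4-fold (adjusted p = 1.15e-05), and Scgb1a1, the club cell secretory protein, by 8.30-fold (adjusted p = 0.000992). Of 8 glial genes, 6 had a higher mean in the ductus and 2 a lower one, with a median difference of 0.18. Called higher in the ductus were 2, Cdh19 and S100b (1.61-fold and 1.64-fold, limma adjusted p up to 0.0392). Cdh19 was at 2.49 to 2.64 on the aorta arrays, below every first quartile, so its level there is not shown to be above background. The S100b call was kept without aorta replicate 4. It was lost without any 1 of the other arrays (up to 0.103) and with a variance trend (0.0734). Mbp, named after its values were seen, differed the other way by -1.26 without overlap (adjusted p = 0.0524). Of the 8 smooth muscle genes, 3 were called higher in the ductus and 0 higher in the aorta, with a median difference of 0.60. These were Des, desmin (5.05-fold, adjusted p = 0.000889), Myh11, smooth muscle myosin (2.00-fold, adjusted p = 0.00623), and Cnn1, calponin (2.66-fold, adjusted p = 0.0273). The other Des probe set went the opposite way, and the mean of its 2 probe sets differed by 1.11 (limma adjusted p = 0.00181). The Cnn1 call was lost without any 1 of aorta replicates 1 and 4 or ductus replicates 1, 3 and 4 (up to 0.0794). The part of these cells in the members' values was not tested.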

How the data were processed

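The deposited table holds log2 values from 8 arrays. Per the submitters' processing notes the authors used Partek 6.6 and RMA (background correction, quantile normalization and a summary per probe set), with order and settings not given in the sources used here. Control probe sets (64) were left out, as were 9160 with no gene symbol in the annotation used and 932 with several symbols. Single symbols were carried by 34945 probe sets; gene IDs linked 34741 of them to RefSeq, and the platform's name was used for the other 204.

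Differences were tested with limma 3.58.1 in R 4.3.3 (lmFit, eBayes, two-sided, no covariate), once over 18193 genes, each with its probe set of highest mean, and once over all single-gene probe sets. No low-value filter was applied. The number of arrays limits the precision. On simulated arrays of the 18193 genes, randomly drawn genes were given a true shift. Shifts of log2 1 were found for 71% of the genes that had them and shifts of log2 2 for 98%, and 9 of 178 calls were false. These shares are averages over the drawn genes. They were not worked out for genes of large spread such as Flt4 and Prox1 (SD 1.08 and 0.809 in the aorta).

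The members and the 18 gene lists were chosen with earlier results of these data known. Named were all members, up to 4 called genes per list (2 of largest difference where 0 were called), and 3 nearest profiles per member; exceptions are marked. Alternatives covered scaling, covariates, probe set choice, low-value filters, the variance prior, array weights, the threshold and leaving out arrays. The labels name Trizol for extraction, and the design text a GentraSystems kit for homogenization. Some listed genes without a single-gene probe set were not analysed here.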

Additional observations from a re-analysis of the deposited data

Results flagged for a closer look

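Pdpn on aorta replicate 1 stood apart from the other aorta arrays. It was at 11.40 there and at 10.62 to 10.68 on the other aorta arrays, so its gap to the nearest array took up 0.914 of the group's range. Of 22 groups of 4 arrays checked in this way, over the 10 member probe sets and Krt19, this was the 1 that stood out, and chance gives about 1 in 20. Krt19 (10.11) and the mesothelial list mean (9.00) were also highest on that array, and their part in it was not tested. Without it the Pdpn difference was -0.95 and was still called (limma adjusted p = 0.0127).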

How the results depend on the processing

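Of the 5 members, the number called was 1 with arrays scaled to the endothelial list mean, 1 when a 2-fold change was also asked for, 0 at an adjusted p under 0.01, and 1 to 2 on leaving out 1 array. With the mesothelial list mean as a covariate limma called 0 members (1 at an unadjusted p under 0.05). In the same settings the number called of the 54 pathway genes was 22, 6, 5, 7 to 11 and 0 (10 at an unadjusted p under 0.05). With that covariate Flt4, Prox1 and Reln changed sign, with none of them called (adjusted p of 0.515 to 0.828). The covariate itself did not overlap between the tissues, so lost calls and changed signs in that fit cannot be read as an effect of mesothelium. Member probe sets called on leaving out 1 array were 1 to 4.

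Same-numbered arrays of the tissues did not deviate together (correlations of -0.23 to -0.07), so no pairing by number was seen. With 4 arrays per tissue, such correlations cannot settle whether samples were paired. With a replicate block, limma called 0 members (2 at an unadjusted p under 0.05), 0 member probe sets (4 likewise), 4 pathway genes and 403 of all genes. Pdpn then had an adjusted p of 0.0828 and Lyve1 of 0.113. No array correlated best with its own number. Each aorta array correlated best with a different ductus array: 1 with 2 (0.19), 2 with 3 (0.29), 3 with 4 (0.28) and 4 with 1 (0.34). A pairing in that order was not tested. The 702 calls over all genes were 443 without aorta replicate 2 and 454 without ductus replicate 4.

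Median centring, repeated quantile normalization, other choices of probe set, low-value filters, other variance priors and array weights left 2 members called. Flt4, Reln and Prox1 were called in 0 of the settings run as genes. Levels near the first quartile limit the weak Prox1 and Reln probe sets.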
